A study of Homo sapiens with 12 samples.

Results

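RAB proteins are small GTPases of the RAS superfamily that mark membrane compartments. A RAB is loaded with GTP by an exchange factor, recruits effectors such as tethers and motor adaptors while it sits on a membrane, and is switched off by a GTPase-activating protein. Its lipid tail lets it stay on membranes, and GDI proteins extract it and carry it through the cytosol for another round. Different RABs serve different steps, from the endoplasmic reticulum (ER) to the Golgi, through early, recycling and late endosomes, to secretion and the cilium.

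The genes described here are the 61 names, of 55765 in the RNA-seq table, that consist of RAB, digits and at most 1 further capital letter. They were chosen by their name and because names starting with RAB had shifted down in ERI2 siRNA against control siRNA in these same libraries. That contrast is therefore given for them as a description, without p-values, and calls among them support nothing beyond the choice. HEK293T, an established line from embryonic kidney that expresses the SV40 large T antigen, received 50 nM siRNA against ERI2, an exonuclease gene, or control RNA. Transfection was repeated after 48 hours and cells were harvested 72 hours later; the protocol text also speaks of ERI-1 siRNAs, HEK293 cells and microarrays, none of which is a group here. Long RNA was sequenced from 3 libraries per group, which held 34.5, 38.3 and 30.1 (in units of 1e+06 counts) for control replicates 1 to 3 and 32.0, 32.6 and 29.1 for ERI2 siRNA, called knockdown below. The labels tie no library to a separate culture, so the error between libraries may be technical. A single ERI2 siRNA group without rescue means that off-target effects of the siRNA and loss of ERI2 cannot be told apart. Fewer cells of a kind and less RNA per cell cannot be told apart in bulk RNA either.

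ERI2 itself read 54.4, 58.2 and 54.4 CPM in control replicates 1 to 3 and 34.6, 35.8 and 32.5 CPM in knockdown, where CPM is counts per 1e+06 counts after TMM scaling of the library sizes. Every knockdown library lay below every control library. Of 10 markers of HEK293 cells all were detected, with VIM and CDH2 high and PAX2, LHX1 and GATA3 low. Of 9 markers of keratinocytes and cervical carcinoma cells 4 (CDH1, EPCAM, ANXA1 and CAV1) fell in edgeR's test, which called 4.25% of all tested genes lower. SFN was not called, at a log2 fold change of 0.12. The summed level of all 9 went from between 35.0 and 38.6 CPM to between 19.8 and 21.9 CPM. KRT5, KRT6A and TP63 were at 0 in all libraries and KRT14 at 0 in all but 1. Of the 10 HEK293 markers NEFL and INA fell, and PAX2 (log2 fold change 0.44) and GATA3 (0.17) lay above 0, not called. The sums ran from 1187 to 1325 CPM in control and from 937 to 1161 CPM in knockdown. Most of each sum was VIM (means of 924 and 736 CPM) and CDH2 (187 and 166 CPM), neither of them called. Of 8 fibroblast markers 3 were tested. COL3A1 fell, while COL1A1 (log2 fold change 0.31) and LUM (0.25) lay above 0 and were not called. The sums overlapped, from 13.1 to 16.3 CPM in control and from 11.8 to 16.1 CPM in knockdown, with COL1A2 and THY1 at 0. Of 7 blood markers only 1, CD14, had enough counts to be tested, and it was not called (edgeR). CD68, not tested, had 1, 1 and 0 counts in control and 7, 13 and 4 in knockdown. The sums over the 7 ran from 0.162 to 0.592 CPM in control and from 0.570 to 1.04 CPM in knockdown, with CD3E and MS4A1 at 0. The part of these markers in the RAB values was not tested.

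Most RAB genes read somewhat lower in knockdown. Of the 61 names 52 had enough counts to be tested, and among these 39 had a log2 fold change below 0, or 75%, beside 49.5% of all tested genes. Their median was -0.16, beside 0.003 for all 18843 tested genes, and they spanned from -0.69 (RAB27A) to 0.42 (RAB40A). Abundant genes as a whole also leaned down: among tested genes with a mean of at least 10 CPM 57.7% were below 0, beside 30 of 38 RAB genes (78.9%). In edgeR's quasi-likelihood test, adjusted over all genes, 6 RAB genes were called lower, with 4.25% of all tested genes called lower (6.45% of those of at least 10 CPM, where 4 of 38 RAB genes were called). They were RAB27A, RAB30, RAB3D, RAB9B, RAB34 and RAB6B. None was called higher, beside 4.29% of all tested genes. At an unadjusted p under 0.05 19 RAB genes were lower and 2 higher, beside 13.1% and 13.4% of all genes, and DESeq2 and limma-voom each called 6 lower and 0 higher (backgrounds of 6.66% and 5.47% for DESeq2, 3.99% and 4.18% for limma-voom). The groups did not overlap, with knockdown lower, for 15 of the 52 genes (15.6% of all tested genes) and with knockdown higher for 1, RAB40A (14.1%). At 10 CPM or more this held for 11 of 38 RAB genes lower and 0 higher. Of all 10315 tested genes of that level 2113 were lower and 1238 higher without overlap.

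**Figure D1:**
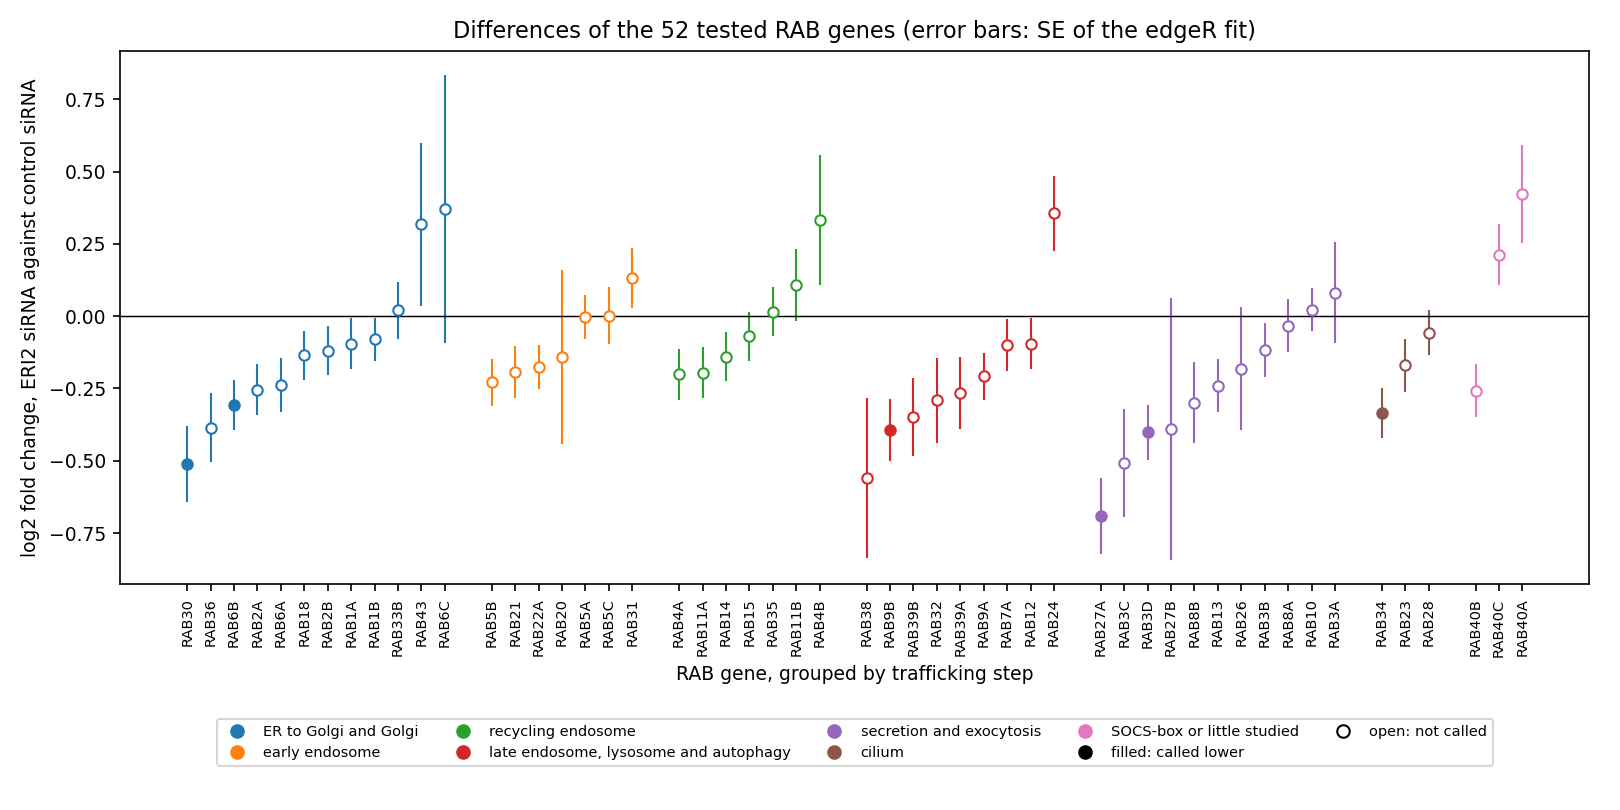
Log2 fold change of each of the 52 tested RAB genes, ERI2 siRNA against control siRNA, with the SE of the edgeR fit as error bar, ordered within each trafficking step. Filled points mark the 6 genes called lower, and RAB27A lies lowest at -0.69.

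The 9 names that were not tested were RAB1C, RAB17, RAB19, RAB25, RAB33A, RAB37, RAB41, RAB42 and RAB44, with at most 12 counts in any library. RAB17 and RAB25, which serve polarised epithelia, and RAB37, known from secretory granules, are among them. RAB1C and RAB41 were at 0 in all libraries, which allows up to 3 counts a library, or 0.0783 to 0.103 per 1e+06 counts (counting error only). The 61 names together took from 0.145% to 0.164% of all counts in a library.

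The lean was not the same in the replicates. Over the 52 tested genes the median deviation from each gene's mean over the 6 libraries was 0.01, 0.14 and 0.09 log2 units in control replicates 1 to 3 and -0.02, -0.05 and -0.14 in knockdown, while the median over all tested genes stayed within 0.01 of 0 in every library. Control replicate 1 thus lay close to knockdown replicate 1, and the spread came from control replicates 2 and 3 against knockdown replicates 2 and 3. Between the replicate 1 libraries 28 of 52 RAB genes were lower in knockdown, with a median of -0.04, and between replicates 2 and 3 43 were lower, with a median of -0.22. Over all tested genes these medians were -0.005 and 0.002, and over those of at least 10 CPM 0.02 and -0.08, beside 0.02 and -0.21 for the RAB genes of that level. Replicate numbers carry no batch label and did not pair the libraries: over all genes control replicate 1 deviated against knockdown replicate 1 (r = -0.51) and with knockdown replicate 3 (r = 0.45). Differences by replicate number, here and for single genes below, therefore describe which libraries are high or low and are no paired measurements.

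**Figure D2:**
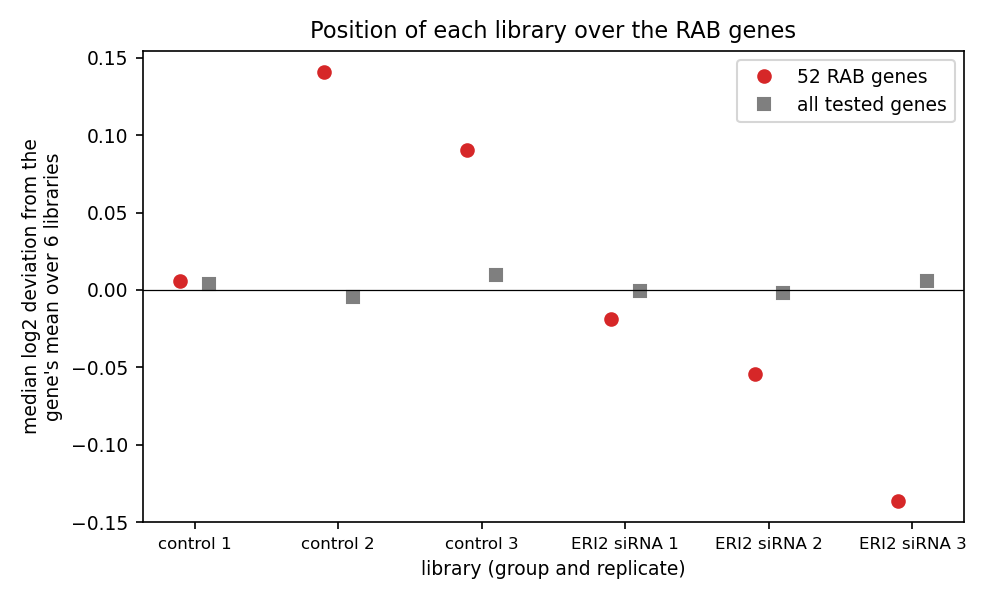
Median log2 deviation of the 52 tested RAB genes (circles) and of all tested genes (squares) from each gene's own mean, by library. Control replicates 2 and 3 lie highest for RAB genes at 0.14 and 0.09, and knockdown replicate 3 lowest at -0.14.

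The number of called RAB genes moved with single libraries. Without control replicate 1 11 were called lower (5.32% of all genes), without control replicate 2 2 (2.19%) and without control replicate 3 1 (1.09%). Without knockdown replicate 1 9 were called lower (6.81%), without knockdown replicate 2 1 (1.11%) and without knockdown replicate 3 1 (1.01%). RAB27A was called in each of these 6 fits, and RAB3D in 3 of them, those that lacked control replicate 1 or 2 or knockdown replicate 1. Without both replicate 1 libraries 20 RAB genes were lower and 2, RAB24 and RAB40A, were higher, beside 14.1% and 13.9% of all genes. Under total library size the median over all tested genes went to 0.06, and this scaling left 2 lower, RAB27A and RAB3D, and 0 higher, beside 2.46% and 5.18% of all genes.

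**Figure D3:**
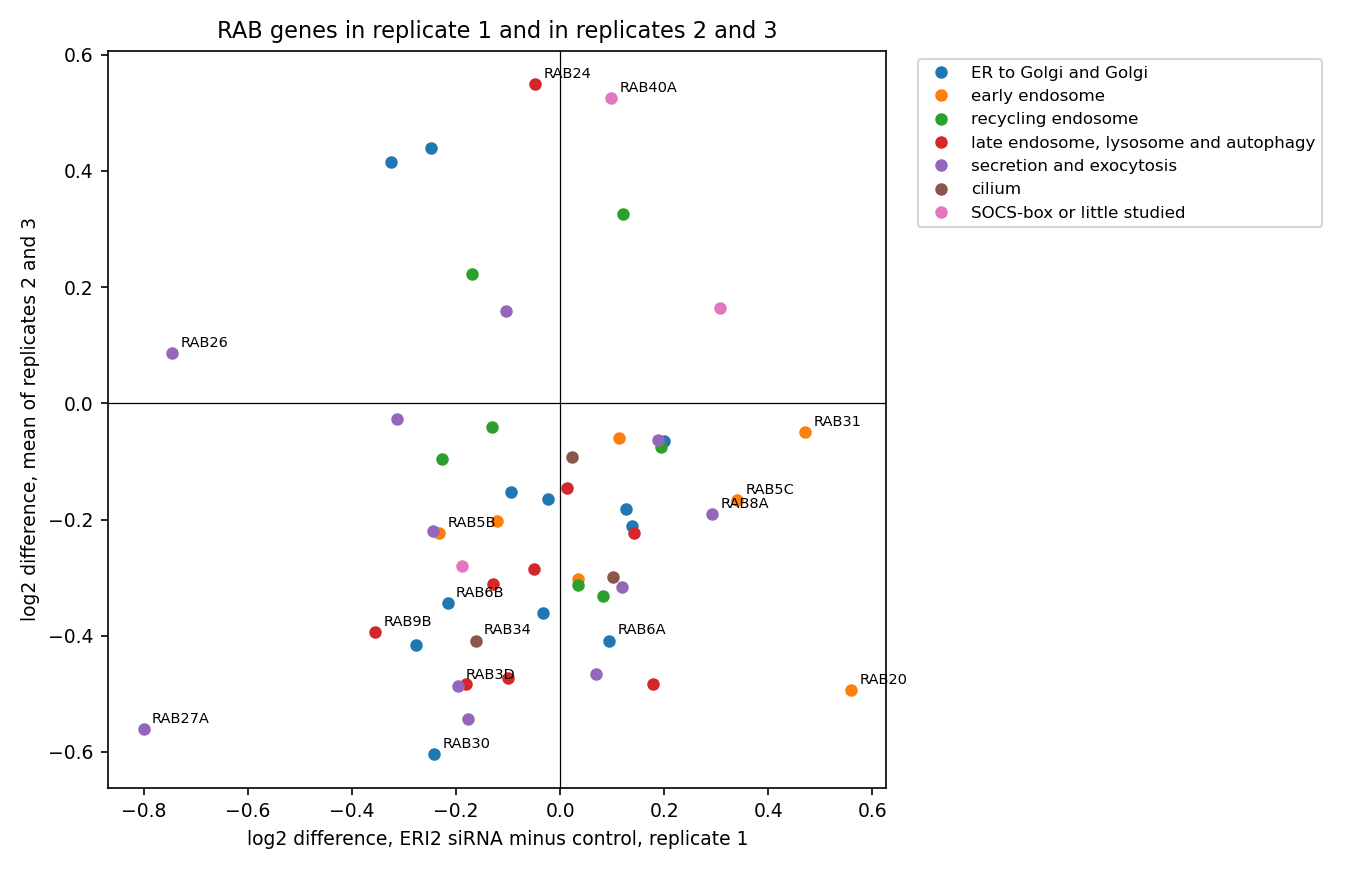
Log2 difference, knockdown minus control, of each tested RAB gene in replicate 1 (horizontal axis) and as the mean of replicates 2 and 3 (vertical axis), coloured by trafficking step. RAB27A is low on both axes, at -0.80 and -0.56, while RAB31, RAB5C and RAB8A are above 0 in replicate 1 and below 0 in replicates 2 and 3.

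RABs of secretion and exocytosis held the gene with the lowest log2 fold change. RAB27A, which docks secretory lysosomes, melanosomes and exosome-releasing compartments at the plasma membrane, read 7.76, 7.67 and 7.42 CPM in control replicates 1 to 3 and 4.25, 4.96 and 4.95 CPM in knockdown. The groups did not overlap, and the gap between them was wider than the spread within either. RAB27A fell by 0.69 on the log2 scale (SE 0.132; to 61.9% of control), with values from -0.73 to -0.63 when any single library was left out. It lies under 10 CPM and was singled out after its values were seen. Its paralog RAB27B, at 0.409 ± 0.0876 and 0.315 ± 0.166 CPM (SD, n = 3), was too scarce to compare.

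RAB3D, a RAB of secretory granules, read 25.4, 26.7 and 31.4 CPM in control and 22.1, 20.5 and 20.5 CPM in knockdown. The groups did not overlap, and the knockdown libraries sat close together while control replicate 3 was highest. Its log2 fold change was -0.40 (SE 0.0952), with -0.20 in replicate 1 and -0.49 in replicates 2 and 3. The related RAB3B, which serves regulated exocytosis in endocrine and nerve cells, read 31.4, 31.1 and 32.2 CPM in control and 25.2, 31.1 and 30.9 CPM in knockdown. In RAB3B only knockdown replicate 1 was low, while in RAB3D all knockdown libraries lay below control. The difference between these paralogs was not tested. RAB3C (-0.51, 2.58 CPM) did not overlap between groups but was not called, and RAB3A measured 0.08.

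RAB8A, RAB8B, RAB10 and RAB13 carry Golgi and recycling cargo to the plasma membrane. RAB8A read 73.5, 92.0 and 85.6 CPM in control and 90.1, 76.1 and 79.3 CPM in knockdown. The groups overlapped fully, since control replicate 1 was the lowest library and knockdown replicate 1 the second highest. RAB8B read 22.7, 31.1 and 22.0 CPM in control and 23.9, 21.1 and 16.8 CPM in knockdown. Control replicate 2 stood high and knockdown replicate 3 low, and its value of -0.30 went from -0.43 to -0.12 as single libraries were left out. RAB10, which brings glucose transporters to the surface in fat cells, read 93.2, 102 and 99.0 CPM in control and 106, 100 and 91.9 CPM in knockdown, a log2 fold change of 0.02. RAB13, a RAB of cell junctions, measured -0.24 without overlap and was not called. Of the 11 tested genes of this step 2 were called lower (18.2%, beside 4.25% of all tested genes). Below 0 were 9 (81.8%, beside 49.5% of all tested genes), with a median of -0.24.

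The sequences upstream of the genes are shown for the secretory RABs that were also called lower under total library size, RAB27A and RAB3D, and for RAB24, which had the highest log2 fold change among RAB genes of at least 10 CPM (its values are below). Each is the 250 bases before the RefSeq start of the gene in GRCh38.p14, another build than the hg19 of the counts, read on the gene's strand. Capitals mark matches, on either strand, to the GC box GGGCGG, the E-box CACGTG, the CCAAT box CCAAT, the cyclic AMP response element TGACGTCA and the TATA box TATAAA.
RAB27A, chr15:55319124-55319373, minus strand: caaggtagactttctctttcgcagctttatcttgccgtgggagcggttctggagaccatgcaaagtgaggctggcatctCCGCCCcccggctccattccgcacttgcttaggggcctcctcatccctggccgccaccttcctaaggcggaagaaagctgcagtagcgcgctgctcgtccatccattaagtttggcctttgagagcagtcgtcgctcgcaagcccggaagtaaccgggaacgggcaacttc
RAB3D, chr19:11339658-11339907, minus strand: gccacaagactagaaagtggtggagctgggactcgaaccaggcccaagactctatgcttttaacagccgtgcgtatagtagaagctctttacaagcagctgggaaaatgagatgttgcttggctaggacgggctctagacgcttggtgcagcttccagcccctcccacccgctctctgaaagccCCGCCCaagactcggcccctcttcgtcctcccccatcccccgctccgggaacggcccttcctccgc
RAB24, chr5:177303720-177303969, minus strand: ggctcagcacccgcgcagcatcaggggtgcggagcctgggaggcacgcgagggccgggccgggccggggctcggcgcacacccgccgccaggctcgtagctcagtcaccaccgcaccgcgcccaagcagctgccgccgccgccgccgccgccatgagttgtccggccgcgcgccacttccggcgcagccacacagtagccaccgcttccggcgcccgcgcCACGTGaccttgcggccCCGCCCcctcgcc
RAB27A and RAB3D each held 1 GC box, and RAB24 held 1 GC box and 1 E-box. These matches are letters in a window and no shown binding.

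RefSeq gave an upstream window for 47 of the 61 names. Of these 38 held the GC box (80.9%), beside 42.3% of all 27303 windows. Among the 42 windows of tested RAB genes 36 held it (85.7%), beside 66.7% of 10603 matched tested genes. The E-box was in 5 windows (10.6%, beside 6.49% of all windows): RAB4A, RAB5A, RAB21, RAB24 and RAB31. All 5 genes were tested (11.9% of tested RAB windows, beside 8.85% of tested genes). The TATA box was in 2 (4.26%, beside 11.1% of all windows), RAB6C and RAB40A, both tested (4.76%, beside 5.38% of tested genes). The cyclic AMP response element was in 1, RAB25 (2.13%, beside 1.77% of all windows). RAB25 was not tested, so 0 of the 42 tested held this element, beside 2.79% of tested genes. The CCAAT box was in 13 (27.7%, beside 33.0% of all windows), and in 12 of the 42 tested (28.6%, beside 35.2% of tested genes). The median GC content of the RAB windows was 65.2%, beside 58.0% of all windows. For tested RAB genes it was 66.2%, beside 65.2% of all tested genes. RAB40A (30.4%) and RAB6C (35.2%) were the AT-rich exceptions. Of the 6 genes called lower 4 held a GC box, RAB30 held a CCAAT box, and RAB34 held none of the motifs searched.

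**Figure D4:**
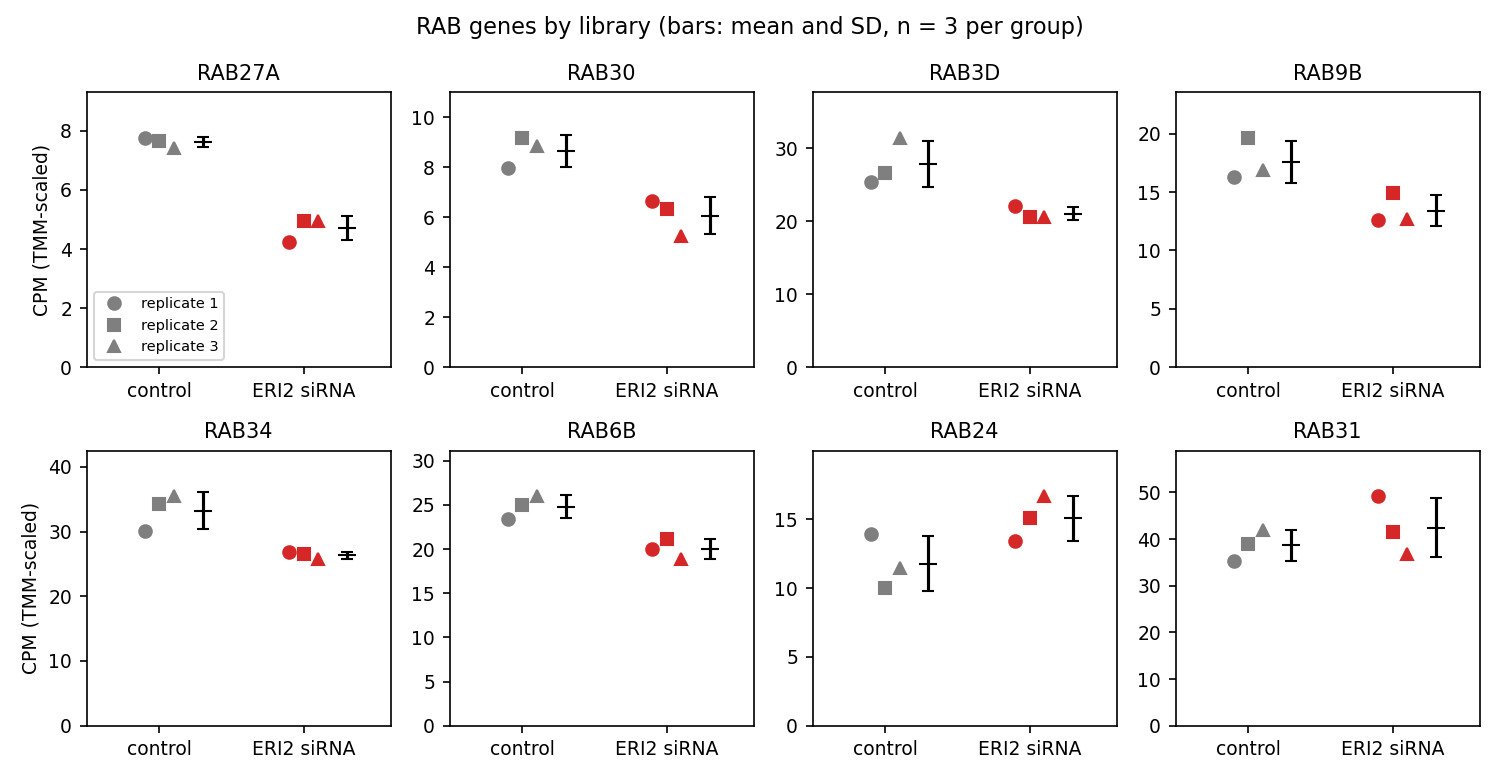
Level in CPM of 8 RAB genes in each library, with symbols for the replicate number and bars for the mean and SD (n = 3 per group). The 6 genes called lower do not overlap between groups, while RAB24 and RAB31 do, RAB31 with its highest value of 49.2 CPM in knockdown replicate 1.

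Of the RABs of the ER and Golgi RAB30 and RAB6B were called lower. RAB30, a Golgi RAB, read 7.96, 9.18 and 8.85 CPM in control and 6.65, 6.32 and 5.25 CPM in knockdown. The groups did not overlap. Replicate 1 differed by -0.24 and replicates 2 and 3 by -0.60, for a log2 fold change of -0.51 (SE 0.133). RAB30-AS1, annotated antisense to it, read 0.18 and was not called. No source used here gives the strand setting of the counts, so reads of RAB30 and RAB30-AS1 may be mixed. RAB30 was singled out after its values were seen, since it lies under 10 CPM. RAB36 (-0.39) did not overlap between groups either and was not called.

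RAB6 proteins drive traffic out of the Golgi, and RAB6B is the paralog best known from neurons. RAB6B read 23.4, 25.0 and 26.0 CPM in control and 20.1, 21.1 and 18.9 CPM in knockdown. Every knockdown library was below every control library, at a log2 fold change of -0.31 (SE 0.0868). RAB6A read 79.1, 93.9 and 89.3 CPM in control and 84.5, 71.7 and 66.2 CPM in knockdown. Here knockdown replicate 1 lay above control replicate 1, so that replicate 1 differed by 0.09 and replicates 2 and 3 by -0.41. RAB6C, a retrocopy of RAB6A that may share its reads, had at most 17 counts a library.

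RAB1A and RAB1B tether vesicles between ER and Golgi. RAB1A read 47.1, 56.2 and 52.7 CPM in control and 51.9, 50.3 and 43.8 CPM in knockdown. RAB1B read 88.9, 101 and 101 CPM in control and 97.2, 90.6 and 87.8 CPM in knockdown. In both genes knockdown replicate 1 was above control replicate 1 and the groups overlapped, with log2 fold changes of -0.09 and -0.08.

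RAB2A and RAB2B keep the Golgi in shape. RAB2A read 43.8, 51.5 and 46.5 CPM in control and 42.8, 39.7 and 36.4 CPM in knockdown. Its groups did not overlap, yet replicate 1 differed by only -0.03, and it was not called (-0.25). RAB2B read 27.3, 28.3 and 26.2 CPM in control and 26.8, 25.1 and 23.4 CPM in knockdown, with overlap. RAB33B, a Golgi RAB that recruits autophagy proteins, read 14.4, 17.5 and 16.1 CPM against 16.6, 16.1 and 16.0 CPM and showed no shift (0.02). Of the 12 tested genes of the ER and Golgi 9 were below 0 (75%, beside 49.5% of all tested genes), with a median of -0.13.

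On early endosomes none of 7 genes was called by edgeR, DESeq2 or limma-voom. At an unadjusted p under 0.05 in edgeR 3 were lower and 0 higher, beside 13.1% and 13.4% of all tested genes. The 3 RAB5 paralogs, which fuse early endosomes, had different patterns over the libraries. RAB5A read 44.6, 48.2 and 45.3 CPM in control and 48.3, 46.0 and 43.7 CPM in knockdown. RAB5B read 32.8, 30.8 and 33.0 CPM in control and 27.8, 28.5 and 26.0 CPM in knockdown. RAB5C read 38.5, 43.9 and 48.5 CPM in control and 48.8, 41.9 and 40.2 CPM in knockdown. Only RAB5B had groups that did not overlap, with -0.23 in replicate 1 and -0.22 in replicates 2 and 3. RAB5C had differences of opposite sign, 0.34 in replicate 1 and -0.17 in replicates 2 and 3, and its log2 fold change over all libraries was 0.00. The difference between the RAB5 paralogs was not tested.

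RAB31, which moves cargo between the Golgi and endosomes, read 35.4, 38.9 and 42.0 CPM in control and 49.2, 41.5 and 36.7 CPM in knockdown. Its log2 difference was 0.47 in replicate 1, beside -0.05 in replicates 2 and 3. RAB22A (-0.18), which sorts cargo on early endosomes, did not overlap between groups, and RAB21 (-0.19), which takes up integrins, did. Over the 7 early endosome genes 2 were lower in replicate 1 and 7 in replicates 2 and 3, with medians of 0.11 and -0.20.

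RABs of recycling endosomes stayed nearest to 0, with a median of -0.07 over 7 tested genes. No gene was without overlap, and none was called by edgeR, DESeq2 or limma-voom. At an unadjusted p under 0.05 in edgeR 2 were lower and 0 higher, beside 13.1% and 13.4% of all tested genes. RAB11A, the RAB of slow recycling, read 122, 150 and 140 CPM in control and 129, 123 and 108 CPM in knockdown. RAB11B read 12.5, 11.4 and 13.2 CPM in control and 11.0, 13.5 and 15.4 CPM in knockdown. Their differences in replicates 2 and 3 had opposite signs, -0.33 for RAB11A and 0.22 for RAB11B, whose value may include reads of RAB11B-AS1 (0.12, not called). RAB4A (-0.20) and RAB4B (0.33), RABs of fast recycling, were also on opposite sides of 0, RAB4B at 1.61 CPM. RAB35, which recycles receptors at the surface, measured 0.02, RAB14 -0.14 and RAB15 -0.07.

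Late endosome, lysosome and autophagy RABs had a median of -0.27 over 9 tested genes, 8 of them below 0 (88.9%, beside 49.5% of all tested genes). RAB9B, a paralog of the late endosome to Golgi RAB RAB9A, read 16.3, 19.6 and 16.9 CPM in control and 12.6, 14.9 and 12.7 CPM in knockdown. The groups did not overlap. Replicate 1 differed by -0.36 and replicates 2 and 3 by -0.39, for a log2 fold change of -0.39 (SE 0.108). RAB9A read 38.6, 40.6 and 42.3 CPM in control and 37.3, 32.4 and 35.6 CPM in knockdown, without overlap but uncalled at -0.21. RAB39B, a brain RAB altered in an inherited parkinsonism with intellectual disability, read 11.4, 12.9 and 12.0 CPM in control and 10.6, 10.4 and 7.49 CPM in knockdown. Knockdown replicate 3 was low, and without single libraries its value of -0.35 lay between -0.44 and -0.21. RAB7A, the main late endosome RAB, measured -0.10, and RAB32 (-0.29) and RAB38 (-0.56, 1.33 CPM), which serve melanosomes and related organelles, overlapped between groups.

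RAB24, linked to the late steps of autophagy, had the highest log2 fold change among RAB genes of at least 10 CPM, 0.36 (SE 0.129), and was not called. It read 13.9, 9.97 and 11.4 CPM in control and 13.4, 15.1 and 16.7 CPM in knockdown. Control replicate 1 lay above knockdown replicate 1, so the groups overlapped, and the difference of 0.55 was in replicates 2 and 3 (-0.05 in replicate 1). RAB24 was called higher in the fits without control replicate 1 (6.33% of all genes higher), without knockdown replicate 1 (7.31%) and without both (13.9%).

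Among the 3 ciliary RABs RAB34, which is needed to build the cilium inside the cell, read 30.1, 34.3 and 35.4 CPM in control and 26.8, 26.5 and 25.7 CPM in knockdown. The knockdown libraries differed by about 1 CPM and the control libraries by about 5 CPM, without overlap, at a log2 fold change of -0.33 (SE 0.0853). RAB23, which restrains Hedgehog signalling, measured -0.17 and RAB28, needed in photoreceptor cilia, -0.06, and both overlapped.

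RAB40 proteins carry a SOCS box that recruits a ubiquitin ligase. RAB40B read 16.0, 16.7 and 17.2 CPM in control and 14.0, 13.5 and 14.2 CPM in knockdown, and RAB40C read 16.2, 15.2 and 19.6 CPM in control and 20.2, 18.8 and 20.0 CPM in knockdown. RAB40B did not overlap between groups at -0.26, and RAB40C, at 0.21, did. RAB40A, on the X chromosome, read 4.41, 3.67 and 3.38 CPM against 4.75, 4.63 and 6.04 CPM (0.42, not called). Its near copy RAB40AL, outside the name pattern, rose in edgeR's test (log2 fold change 1.16; 62, 37 and 26 counts in control, 76, 98 and 89 in knockdown), and reads may be split between the copies. Among 9 tested RAB-like names just outside the pattern RABL6 (0.34) was also called higher in edgeR, beside 4.29% of all tested genes. None was called lower by edgeR, DESeq2 or limma-voom. At an unadjusted p under 0.05 in edgeR 0 were lower, beside 13.1% of all tested genes. RAB7L1, known today as RAB29, measured -0.14.

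The genes that load, unload and read RAB proteins were listed apart from the RAB genes. Those whose names do not start with RAB had no part in the choice, and no difference from the RAB genes, which were chosen for their shift, was tested. Of 138 tested 5 were lower and 2 higher in edgeR's test, or 3.62% and 1.45%, beside 4.25% and 4.29% of all tested genes. Their median was -0.02, beside 0.003 for all tested genes, and 76 were below 0. Of 34 exchange factors 1 fell, DENND5B, a partner of RAB6 and RAB39, from 73.5, 74.5 and 72.9 CPM to 58.0, 59.3 and 55.2 CPM (log2 fold change -0.36, adjusted p = 0.00923 in edgeR). The groups were far apart compared with their spread. SBF1, another exchange factor with a DENN domain (0.29, adjusted p = 0.0542 in edgeR), DENND2C (-0.21, adjusted p = 0.108) and HPS4 (-0.16, adjusted p = 0.145) did not pass. SBF1 did pass in DESeq2 (adjusted p = 0.0218) and in edgeR under total library size, upper quartile scaling, other count filters and without the replicate 1 libraries, and over all alternatives its adjusted p lay between 0.0121 and 0.201. Of 34 GTPase-activating protein genes TBC1D5, which turns off RAB7 beside the retromer, fell from 58.5, 62.7 and 61.5 CPM to 47.2, 48.6 and 45.9 CPM (-0.37, adjusted p = 0.00989 in edgeR). SGSM3 rose (0.35, adjusted p = 0.0457 in edgeR) although its groups overlapped, with 108 CPM in control replicate 1 and 107 CPM in knockdown replicate 1. TBC1D1 (-0.24, adjusted p = 0.0608) and TBC1D8B (-0.28, adjusted p = 0.0957 in edgeR) did not pass, though TBC1D1 did in DESeq2 and in edgeR without control replicate 1 or both replicate 1 libraries.

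Of 51 effector genes 3 fell and 1 rose in edgeR's test, or 5.88% and 1.96%, beside 4.25% and 4.29% of all tested genes. OPTN, the RAB8 effector optineurin, fell from 42.6, 42.5 and 50.1 CPM to 34.5, 32.1 and 32.1 CPM (-0.45, adjusted p = 0.00902 in edgeR). LRRK2, a kinase that binds RAB29 and phosphorylates RAB8 and RAB10, fell from 8.22, 9.45 and 8.50 CPM to 5.83, 6.86 and 5.81 CPM (-0.50, adjusted p = 0.0297 in edgeR). SYTL4, the RAB27 effector granuphilin, fell from 23.5, 22.0 and 22.8 CPM to 17.8, 19.6 and 18.2 CPM (-0.30, adjusted p = 0.0478 in edgeR), and BICD1, a dynein adaptor that binds RAB6, rose from 25.3, 23.0 and 19.6 CPM to 26.8, 29.7 and 32.2 CPM (0.38, adjusted p = 0.0365 in edgeR). In OPTN, LRRK2 and SYTL4 every knockdown library lay below every control library, and in BICD1 above. Other RAB27 effectors, read after the value of RAB27A was known, did not pass. SYTL5 measured -0.38 (adjusted p = 0.0502 in edgeR), EXPH5 -0.10, SYTL1 -0.17, SYTL2 0.12 and SYTL3 -0.34. MYRIP (0.47, 0.529 CPM), UNC13D (0.65, 0.485 CPM) and RPH3AL (0.16, 2.85 CPM) lay above 0, and MLPH was at 0 in all libraries.

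Several of these calls were lost when 1 library was left out. Without control replicate 2 or 3 or knockdown replicate 2 or 3, fewer genes of any kind were called. These fits called from 1.01% to 2.19% of all genes lower and from 0.913% to 1.54% higher, beside 4.25% and 4.29% with all libraries. OPTN was called without any 1 library, while DENND5B and TBC1D5 were lost without knockdown replicate 3 (adjusted p = 0.0533 for each in edgeR). LRRK2 was lost without control replicate 2 or 3 or knockdown replicate 2 or 3 (adjusted p from 0.0600 to 0.127 in edgeR), as was BICD1 (0.0875 to 0.166) and SGSM3 (0.153 to 0.172). SYTL4 was lost without any 1 library (0.0665 to 0.170). Under total library size LRRK2 (adjusted p = 0.0633), SYTL4 (0.130) and SGSM3 (0.0717 in edgeR) did not pass.

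The genes that keep RAB proteins cycling on and off membranes, among them CHM, CHML, GDI2 and PDE6D, were below 0 in 5 of 5 cases, beside 49.5% of all tested genes. Their median was -0.19, and none was called by edgeR, DESeq2 or limma-voom. At an unadjusted p under 0.05 in edgeR 2 were lower and 0 higher, beside 13.1% and 13.4% of all tested genes. GDI2, which extracts RABs from membranes, read 227, 275 and 265 CPM in control and 248, 218 and 206 CPM in knockdown. CHML, a RAB escort protein, read 138, 154 and 136 CPM in control and 133, 122 and 115 CPM in knockdown. GDI2 overlapped through replicate 1 (-0.19, adjusted p = 0.201 in edgeR), and CHML did not overlap (-0.21, adjusted p = 0.102). CHM measured -0.20 (adjusted p = 0.158) and PDE6D -0.11 (adjusted p = 0.491 in edgeR). The list was lower in 1 of 5 genes in replicate 1 and in 5 of 5 in replicates 2 and 3, and 4 passed edgeR's test, all lower, without both replicate 1 libraries, a fit that called 14.1% of all genes lower. CHM and CHML also passed without knockdown replicate 1 alone (adjusted p = 0.0266 and 0.0330 in edgeR).

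Of 14 tested genes of the TRAPP complex, the exchange factor of RAB1 and RAB11, none passed in edgeR. At an unadjusted p under 0.05 in edgeR 2 were lower and 1 higher, beside 13.1% and 13.4% of all tested genes. DESeq2 called 1 in each direction and limma-voom 0. In edgeR TRAPPC12 was at 0.31 (adjusted p = 0.0636), TRAPPC3 at -0.26 (adjusted p = 0.0707), TRAPPC11 at -0.16 (adjusted p = 0.188) and TRAPPC5 at 0.68 (adjusted p = 0.282, 0.504 CPM). TRAPPC12 and TRAPPC3 did pass in DESeq2 and in edgeR without a count filter or without either replicate 1 library. The 18 regulators and effectors whose own names start with RAB, and which may have been part of the choice, had a median of -0.01. Of these 9 were below and 9 above 0, and none was called in edgeR. At an unadjusted p under 0.05 in edgeR 3 were lower and 4 higher, beside 13.1% and 13.4% of all tested genes. DESeq2 called 1 higher and limma-voom 0. The 18 genes ran from RAB11FIP1, an effector of RAB11, at -0.25 to RABGEF1, an exchange factor of RAB5, at 0.48.

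**Figure D5:**
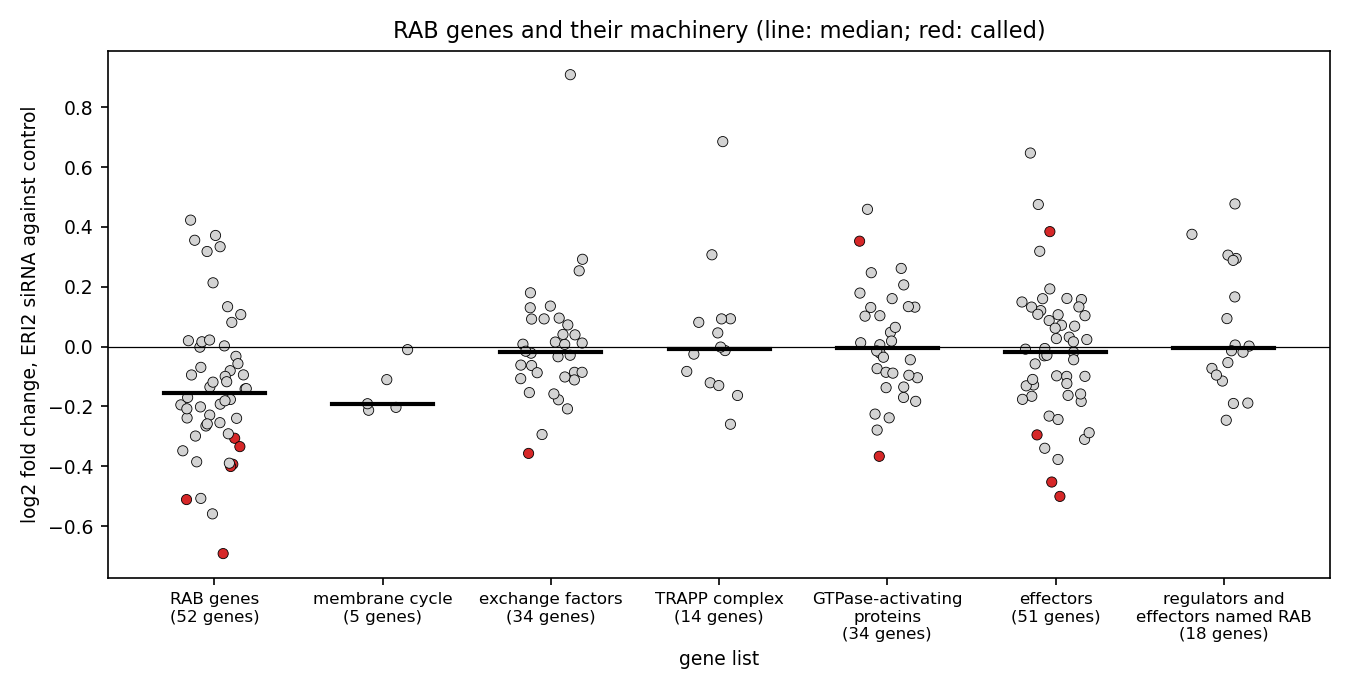
Log2 fold change of each tested gene, knockdown against control, for the RAB genes and the lists of RAB machinery; the line is the median and red points were called in edgeR's test. The RAB genes centre at -0.16 and the 5 membrane cycle genes at -0.19, while the other lists centre within 0.02 of 0.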

How the data were processed

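The tools named per the submitters' processing notes are TopHat2 2.0.10, HTSeq 0.6.1p1 and CASAVA 1.8.2, without their roles, and the build is hg19; no source used here gives the strand setting or the annotation release. The authors deposited raw read counts per gene name, whole numbers, and every column matched 1 RNA-seq sample by title (0 columns without a sample). The miRNA table was not used.

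The deposited counts of all genes passing filterByExpr were fitted in R 4.3.3 with edgeR 4.0.16, using TMM scaling and the robust quasi-likelihood test, with calls at a Benjamini-Hochberg adjusted p under 0.05. Library values on the log2 scale used CPM plus 0.5. The fit was tested on simulated data. Alternatives used DESeq2 1.42.0, limma-voom (limma 3.58.1), other scalings, filters and a stricter threshold, and left out libraries. Levels were not compared between genes, since no transcript lengths were used.

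The RAB members, the trafficking steps, the gene lists and the alternatives were chosen with earlier results of these data known. Library values are given for the 6 largest falls and rises of at least 10 CPM, called members and paralogs of at least 10 CPM, and the machinery genes that were called. Up to 4 genes by p are named per machinery list. RAB27A, RAB30, RAB40A, RAB40AL, the library values of GDI2 and CHML, and the RAB genes given by fold change alone fall outside this rule. They were chosen after their values were seen.

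Replicate numbers did not pair the libraries. Over 15291 genes, deviations from the group means correlated at -0.51, -0.17 and -0.14 for same-numbered libraries, so the replicate block is an alternative only. Replicates of a group differed by more than counting noise (the lowest chi-square over its degrees of freedom was 4.66). Single values of some listed genes are not reported here.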

Additional observations from a re-analysis of the deposited data

How the results depend on the processing

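The median log2 fold change of the RAB genes stayed below 0 in every alternative run, from -0.21 without both replicate 1 libraries to -0.10 under total library size. Counts moved more. Leaving out libraries gave between 1 and 20 RAB genes lower and between 0 and 2 higher, and between 1 and 21 machinery genes lower and between 0 and 13 higher. Over these fits the share of all genes moved from 1.01% to 14.1% lower and from 0.913% to 13.9% higher. Total library size gave 2 RAB and 3 machinery genes lower, beside 2.46% of all genes. Without a count filter 10 RAB genes were lower and 1, RAB24, higher, with 8 machinery genes lower and 5 higher, beside 3.51% lower and 3.98% higher of all genes. DESeq2 called 9 machinery genes lower and 4 higher, beside 6.66% and 5.47% of all genes. At an adjusted p under 0.01 1 RAB gene (RAB27A) and 3 machinery genes were lower and 0 higher, beside 0.77% lower and 0.738% higher of all genes. With the replicate number as a block 0 RAB genes and 0 machinery genes were called in either direction (edgeR), beside 0.52% lower and 0.557% higher of all genes, while the RAB median was -0.17; all 6 RAB calls were lost, and the numbers do not pair the libraries. The cause of these movements was not tested. No named gene changed sign among those called. Among RAB genes under 2 CPM, counting error limits what can be seen: the SE was 0.452 for RAB27B and 0.463 for RAB6C.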
